A study of Mus musculus with 9 samples.

Results

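Prune2, Rpgrip1, Sox11, Pdxdc1, Pttg1, Rmst and 1500004A13Rik are 7 genes of 18193 on the array that share one feature of their brain signal: in BALB/cJ mice a probe set that reads above the array's median in the other strains reads far lower. They were chosen by the measured difference between BALB/cJ and C57BL/6ByJ, as genes with a probe set among the largest decreases, so that difference describes them and is no result of a test. The platform annotation gives them 26 of the 45037 probe sets tested. In each gene the probe set with the lowest BALB/cJ minus C57BL/6ByJ difference is called the lost probe set below, which leaves 19 other probe sets.

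Signal was measured in pools of brain hemispheres, without cerebellum, of untreated adult males at 11 ± 1 weeks of age. The groups were the inbred strain BALB/cJ, the strain B6By.C.132.54, on which the labels give no more than its name (by mouse naming rules, B6By before the point stands for the C57BL/6By host and C after it for a BALB/c donor), and the inbred strain C57BL/6ByJ, and no agent or engineered allele is named for any of them. Each strain had 3 arrays with 10 hemispheres per array, from 30 mice per strain, and the work ran in 3 batches. Pooling means that the spread between arrays is that between pools and not between mice.

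An Affymetrix probe set reports hybridisation to one stretch of a transcript, usually near an end of it, so a gene with several probe sets is read at several places. The 7 genes have little in common by known role. Prune2 encodes a large protein with a BCH domain, shared with Bnip2 and its relatives, and Rpgrip1 a ciliary protein that holds RPGR in the connecting cilium of photoreceptors. Sox11 is a transcription factor of the SoxC group, active in immature neurons, and Pdxdc1 encodes a protein with a decarboxylase domain that uses pyridoxal phosphate. Pttg1 encodes securin, which holds separase inactive until anaphase. Rmst is a long noncoding RNA whose human counterpart binds SOX2 in neural differentiation, and 1500004A13Rik is annotated as a long noncoding RNA.

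The genes lie on 7 different chromosomes: Prune2 on 19, Rpgrip1 on 14, Sox11 on 12, Pdxdc1 on 16, Pttg1 on 11, Rmst on 10 and 1500004A13Rik on 3. Probe sequences were not used here, so the stretch that each probe set reads is not placed. RefSeq (GRCm38.p6) gave a promoter for 6 of the 7. The 250 bases before the start are printed for the 3 genes with the deepest losses and for Pttg1, the gene in which every probe set was called lower. Capitals mark 3 motifs on either strand, with no overlap in these windows. The TATA box was searched as TATAAA, found in 12.4% of all 32851 promoters of that length. The CCAAT box was searched by those letters, found in 33.8%. The GC box was searched as GGGCGG, found in 32.7%. In Prune2, Rpgrip1 and Pttg1 the start that the table uses lies inside the annotated gene.
Prune2, chr19:16955868-16956117, plus strand: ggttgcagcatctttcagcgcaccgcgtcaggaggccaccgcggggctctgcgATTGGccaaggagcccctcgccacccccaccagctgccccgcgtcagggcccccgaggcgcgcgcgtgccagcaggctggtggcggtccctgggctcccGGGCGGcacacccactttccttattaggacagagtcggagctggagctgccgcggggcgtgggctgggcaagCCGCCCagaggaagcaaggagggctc
Rpgrip1, chr14:52110653-52110902, plus strand: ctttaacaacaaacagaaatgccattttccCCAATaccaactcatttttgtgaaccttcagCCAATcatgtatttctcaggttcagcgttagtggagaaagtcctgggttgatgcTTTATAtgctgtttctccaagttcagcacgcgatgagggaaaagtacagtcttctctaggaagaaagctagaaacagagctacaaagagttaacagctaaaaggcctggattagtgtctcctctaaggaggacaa
Sox11, chr12:27342719-27342968, minus strand: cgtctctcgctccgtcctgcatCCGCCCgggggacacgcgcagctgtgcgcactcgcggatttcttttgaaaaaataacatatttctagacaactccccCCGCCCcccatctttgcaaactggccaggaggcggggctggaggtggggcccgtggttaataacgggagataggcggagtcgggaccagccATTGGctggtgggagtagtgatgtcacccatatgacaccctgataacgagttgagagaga
Pttg1, chr11:43425982-43426231, minus strand: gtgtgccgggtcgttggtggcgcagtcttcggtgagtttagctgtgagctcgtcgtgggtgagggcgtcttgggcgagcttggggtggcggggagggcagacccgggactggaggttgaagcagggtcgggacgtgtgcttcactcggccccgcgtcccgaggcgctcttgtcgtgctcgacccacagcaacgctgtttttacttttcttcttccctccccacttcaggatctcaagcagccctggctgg
Prune2 and Sox11 hold matches to the CCAAT and GC boxes. Rpgrip1 holds CCAAT matches and a TATAAA match on the strand opposite to the gene, printed as TTTATA. Pttg1 holds none of them, so the windows share no motif of the 3. These are matches of letters, and whether any works as a promoter element was not tested. Their content of G and C was 72% in Prune2, 41.6% in Rpgrip1, 58% in Sox11 and 63.6% in Pttg1.

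Neuron and oligodendrocyte genes were bright on all arrays, with Syt1 at 11.0 and Mbp at 12.3 log2 intensity over the 9 arrays, and no neuron, oligodendrocyte, photoreceptor, cycling cell, cerebellum or pituitary marker passed limma's test between any pair of strains. One of 5 astrocyte markers, Gfap, was higher in BALB/cJ. Cerebellum was left out of the samples. Of its 7 markers, Gabra6, Cbln3 and Pcp2 averaged 3.24, 3.74 and 3.75. The others were brighter, with Neurod1 at 4.52, Cbln1 at 6.59, Zic1 at 7.69 and Calb1, which other brain regions also express, at 8.82. Whether any cerebellum remained was not tested. The median over all probe sets was 3.97, and since the deposited table carries no detection calls, levels under it are called dim.

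The lost probe sets of Prune2 and Rpgrip1 had the largest decreases of all 34945 probe sets with a single gene. Prune2 (1432198_at) read 3.85, 3.69 and 3.66 log2 intensity on the BALB/cJ arrays, 9.66, 9.56 and 9.35 on the B6By.C.132.54 arrays, and 9.66, 9.57 and 9.59 on the C57BL/6ByJ arrays. Rpgrip1 (1421144_at) read 3.23, 3.29 and 3.04 in BALB/cJ, 8.93, 8.93 and 8.84 in B6By.C.132.54, and 8.89, 8.94 and 8.96 in C57BL/6ByJ. All BALB/cJ arrays were dim and lay apart from the other strains, whose arrays overlapped each other. The BALB/cJ minus C57BL/6ByJ difference was -5.88 ± 0.0994 (SE) for Prune2 and -5.74 ± 0.0874 for Rpgrip1 on the log2 scale. Among all probe sets, Prune2 stood at the 45.2nd percentile of level in BALB/cJ and the 98.5th in C57BL/6ByJ, and Rpgrip1 at the 31.5th and the 97.1st. In pooled tissue, fewer cells of a type and less RNA per cell cannot be told apart, nor can less transcript and weaker hybridisation of the same transcript.

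Sox11, Pdxdc1 and Pttg1 kept a BALB/cJ signal above the median. Sox11 (1431225_at) read 4.49, 4.85 and 4.68 in BALB/cJ, 7.60, 7.89 and 7.60 in B6By.C.132.54, and 7.74, 7.60 and 7.97 in C57BL/6ByJ. Pdxdc1 (1452705_at) read 4.27, 5.15 and 4.41 in BALB/cJ, 7.16, 7.36 and 7.23 in B6By.C.132.54, and 7.23, 7.48 and 7.47 in C57BL/6ByJ. Pttg1 (1424105_a_at) read 5.20, 5.06 and 5.28 in BALB/cJ, 8.17, 8.07 and 7.98 in B6By.C.132.54, and 8.30, 8.02 and 7.95 in C57BL/6ByJ. BALB/cJ was again below both other strains on every array, and Pdxdc1 had the widest spread within BALB/cJ (SD 0.47, n = 3) of the 7. The differences from C57BL/6ByJ were -3.10 ± 0.131 for Sox11, -2.78 ± 0.19 for Pdxdc1 and -2.91 ± 0.111 for Pttg1 (SE, log2 scale).

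The lost probe sets of both noncoding RNA genes were dim in BALB/cJ and above the median in the other strains. Rmst (1438822_at) read 3.83, 3.92 and 3.95 in BALB/cJ, 5.85, 6.21 and 5.96 in B6By.C.132.54, and 5.91, 6.00 and 6.37 in C57BL/6ByJ. The probe set 1429729_at of 1500004A13Rik read 2.58, 2.45 and 2.57 in BALB/cJ, 4.20, 4.72 and 4.56 in B6By.C.132.54, and 4.96, 4.59 and 5.35 in C57BL/6ByJ. All 3 BALB/cJ arrays were under the median of all probe sets in both genes, and no array of the other strains was. They differed from C57BL/6ByJ by -2.19 ± 0.131 for Rmst and -2.43 ± 0.181 for 1500004A13Rik.

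**Figure D1:**
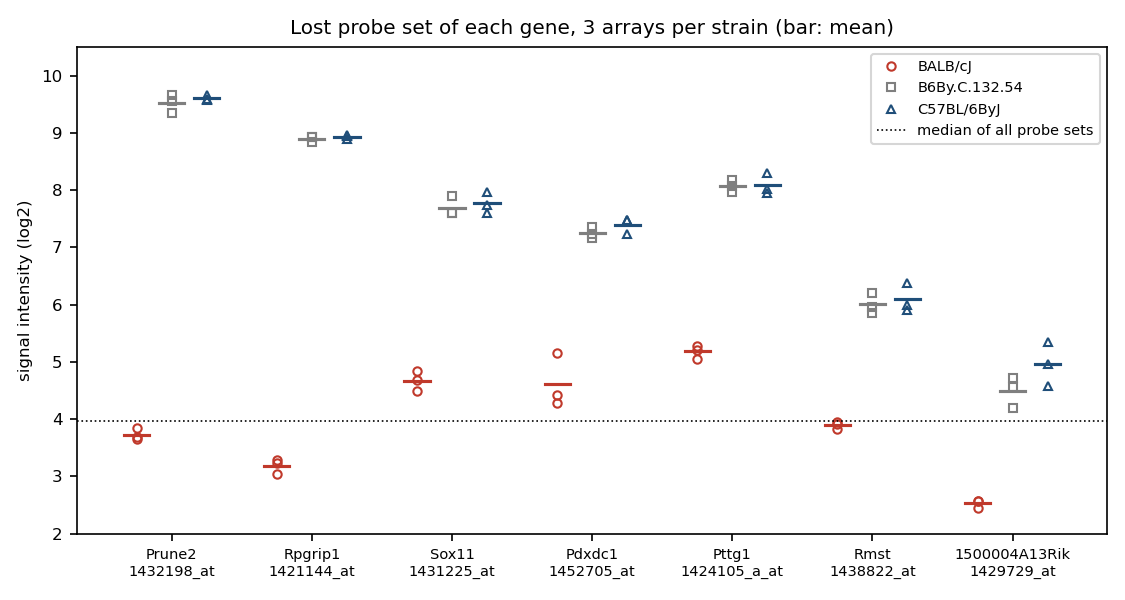
Signal intensity (log2) of the lost probe set of each gene on every array, for BALB/cJ, B6By.C.132.54 and C57BL/6ByJ from left to right. Points are arrays, bars are means of 3 arrays, and the dotted line is the median of all probe sets (3.97). Every BALB/cJ point lies below all points of the other strains, and 4 of the 7 BALB/cJ means lie under the dotted line.

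By limma's calls, a single probe set was lower in 4 of the 7 genes. A further one was called lower in Pdxdc1 and in 1500004A13Rik, and both 1438390_s_at and 1419620_at were in Pttg1. Rpgrip1 and Rmst are among the 4, but their other probe sets were dim in every strain and could hardly show a loss. In Sox11, also among the 4, 1429051_s_at and 1429372_at were lower on every BALB/cJ array without being called. Of the 26 member probe sets, 11 were called lower in BALB/cJ than in C57BL/6ByJ by limma at an adjusted p under 0.05, the 7 lost ones and 4 others, where 0.921% of all probe sets were called lower. Another 3 were called higher, where 0.508% of all were, and 12 of the 19 other probe sets were not called. Since this contrast chose the genes, these counts only describe them. The groups did not overlap, with BALB/cJ lower, in all 7 lost probe sets and 8 others, and with BALB/cJ higher in 4 others; over the whole table these shares were 5.95% and 6.65%. Another probe set was called lower in Pdxdc1, Pttg1 and 1500004A13Rik, and another was called higher in Prune2, Sox11 and Pdxdc1.

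None of the other 3 probe sets of Prune2 was called lower in BALB/cJ. The probe set 1455342_at read 7.15, 6.63 and 6.48 in BALB/cJ, 5.54, 5.36 and 5.04 in B6By.C.132.54, and 5.41, 5.54 and 5.05 in C57BL/6ByJ. It was thus higher on every BALB/cJ array, by 1.42 ± 0.19 against C57BL/6ByJ, while 1432198_at was lower. The remaining probe sets 1430757_at and 1439274_at averaged 3.97 and 3.98 in BALB/cJ, 3.99 and 3.86 in B6By.C.132.54, and 3.91 and 3.81 in C57BL/6ByJ, near the median of all probe sets, with overlapping strains.

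Sox11 had the most probe sets, and they disagreed in direction. The probe set 1453125_at read 5.64, 4.93 and 4.65 in BALB/cJ, 4.01, 4.26 and 3.85 in B6By.C.132.54, and 4.28, 3.88 and 4.19 in C57BL/6ByJ. The dim 1436790_a_at read 4.14, 3.54 and 3.69 in BALB/cJ, 2.83, 2.47 and 2.85 in B6By.C.132.54, and 2.88, 2.74 and 2.97 in C57BL/6ByJ. Both were higher in BALB/cJ on every array, by 0.95 ± 0.218 and 0.92 ± 0.157 against C57BL/6ByJ; the second was called, and the first was not (it was called with the replicate number as a block and without BALB/cJ replicate 3). The other 3 were lower by 0.33 to 0.50 and none was called (1429051_s_at, 1453002_at and 1429372_at, with differences of -0.50, -0.33 and -0.36). The probe sets 1453125_at and 1429372_at are annotated to the same source sequence, yet read 5.07 and 3.67 on average in BALB/cJ and 4.12 and 4.03 in C57BL/6ByJ. Another source sequence is shared by 1429051_s_at and 1453002_at, whose differences went the same way (-0.50 and -0.33).

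In Pdxdc1 a probe set was higher in BALB/cJ by more than the lost one was lower. The probe set 1419327_at read 6.11, 6.17 and 6.60 in BALB/cJ, 3.26, 3.07 and 3.36 in B6By.C.132.54, and 3.00, 3.00 and 3.35 in C57BL/6ByJ. It was dim outside BALB/cJ and 3.17 ± 0.147 higher in BALB/cJ than in C57BL/6ByJ. The probe set 1436372_a_at read 5.41, 5.77 and 5.88 in BALB/cJ, 6.28, 6.69 and 6.56 in B6By.C.132.54, and 6.26, 6.49 and 6.49 in C57BL/6ByJ, a difference of -0.73 ± 0.143. The dim 1428200_a_at shares its source sequence with the lost probe set and averaged 3.47 in BALB/cJ, 3.84 in B6By.C.132.54 and 3.63 in C57BL/6ByJ.

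In Pttg1 all 3 probe sets were lower in BALB/cJ, so the name of a single lost probe set goes against its data. The brightest, 1438390_s_at, read 7.71, 7.90 and 7.76 in BALB/cJ, 9.95, 10.03 and 10.06 in B6By.C.132.54, and 9.92, 10.10 and 10.15 in C57BL/6ByJ. The probe set 1419620_at, dim in BALB/cJ only, read 3.62, 3.71 and 3.45 there, 4.07, 4.17 and 4.06 in B6By.C.132.54, and 4.13, 4.26 and 4.03 in C57BL/6ByJ. The groups did not overlap in either, and the differences from C57BL/6ByJ were -2.27 ± 0.0931 and -0.55 ± 0.0968.

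1500004A13Rik had a second probe set that was called lower. Its probe set 1430660_at read 3.14, 3.20 and 3.21 in BALB/cJ, 3.81, 4.01 and 3.81 in B6By.C.132.54, and 3.99, 4.03 and 4.52 in C57BL/6ByJ. The probe set 1436176_at stayed between 2.70 and 3.12 on all arrays and was not called. It read 2.70, 2.79 and 2.82 in BALB/cJ, under every C57BL/6ByJ array (3.12, 2.90 and 3.00), and overlapped B6By.C.132.54. Rpgrip1 and Rmst had only dim probe sets beside the lost one: the 3 of Rpgrip1 averaged between 2.51 and 3.94 in every strain, and 1440495_at of Rmst between 2.44 and 2.63. None of these 4 was called.

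**Figure D2:**
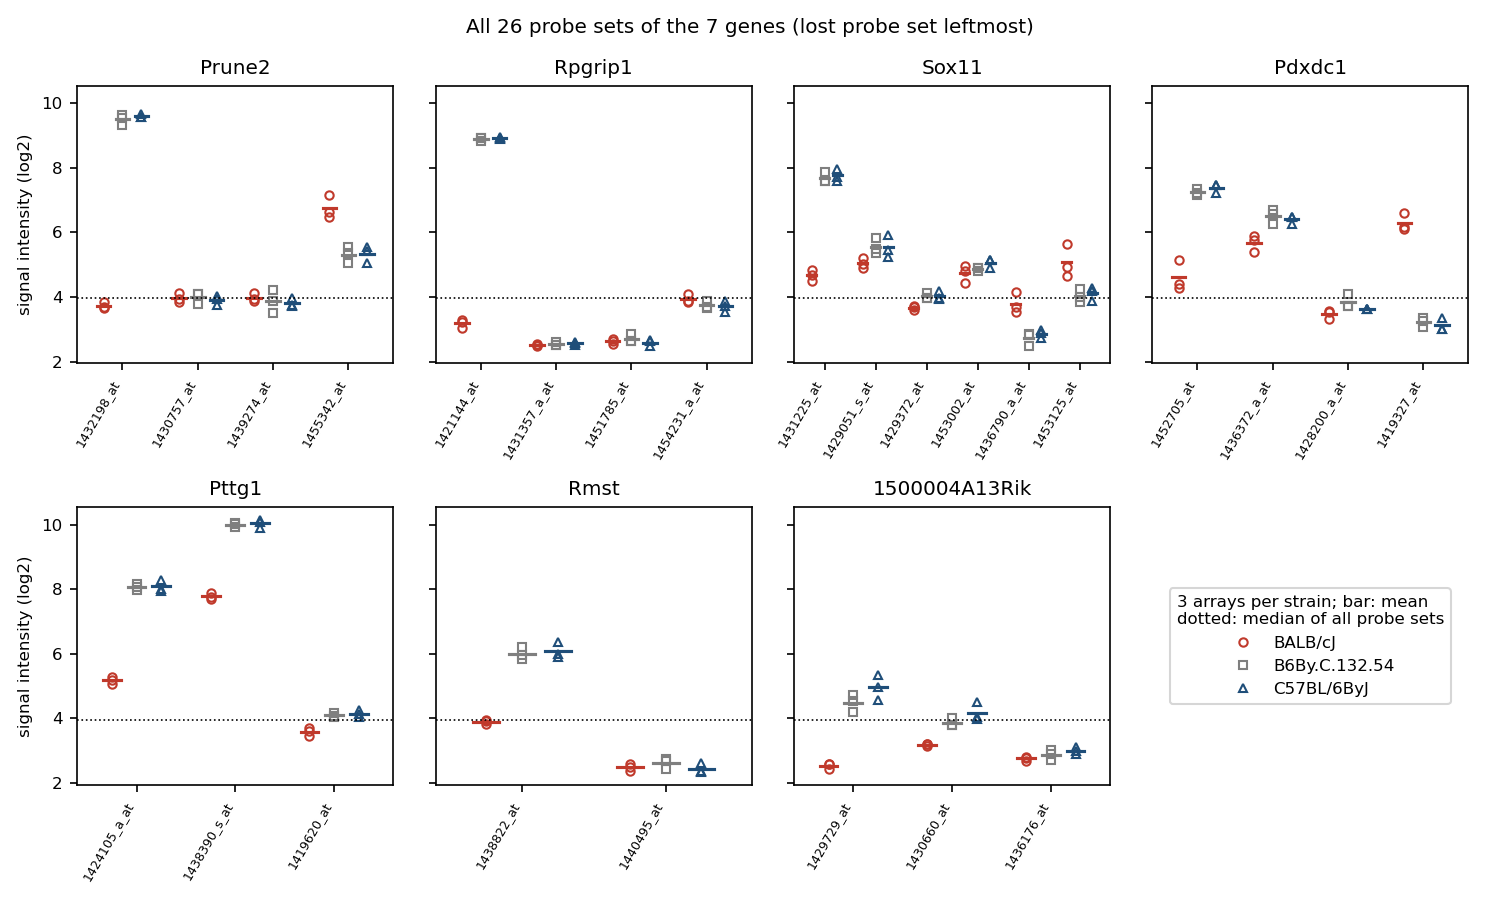
Signal intensity (log2) of all 26 probe sets, 1 panel per gene with the lost probe set leftmost, and within each probe set BALB/cJ, B6By.C.132.54 and C57BL/6ByJ from left to right. Points are arrays, bars are means of 3 arrays, and the dotted line is the median of all probe sets. The probe sets of Prune2, Sox11 and Pdxdc1 move both ways in BALB/cJ, and those of Pttg1 all move down.

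Of the 19 other probe sets, 7 averaged at or above the median of all probe sets, in Prune2, Sox11, Pdxdc1 and Pttg1. One of these, Pdxdc1 1419327_at, reached that level through BALB/cJ alone, since its means in the other strains were under the median. The other 12 were dim over the 9 arrays. Among them, Pttg1 1419620_at and Sox11 1429372_at fell under the median through BALB/cJ alone. Their means were 4.10 and 4.03 in B6By.C.132.54 and 4.14 and 4.03 in C57BL/6ByJ. The lost probe set was the brightest of its gene over the 9 arrays in 6 genes, and in Pttg1 the brightest was 1438390_s_at. By Affymetrix naming, 6 of the 7 lost probe sets end in _at, for probes meant for 1 transcript, and 1 in _a_at, for probes shared by transcripts of a gene; among the others 12 end in _at, 5 in _a_at and 2 in _s_at, for probes shared by several transcripts.

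Within an array, the gap between the lost probe set and the mean of the gene's other probe sets narrowed or turned in BALB/cJ. The lost probe set is the gene's lowest by BALB/cJ minus C57BL/6ByJ, so the direction of this change against C57BL/6ByJ was fixed beforehand. Only its size is described here. In Rpgrip1 and Rmst the other probe sets were all dim, so the gap mainly restates the lost probe set. In Prune2 the gap was -1.17 ± 0.0145 in BALB/cJ, 5.13 ± 0.14 in B6By.C.132.54 and 5.26 ± 0.0392 in C57BL/6ByJ (SD, n = 3 each, log2 scale). In Rpgrip1 it was 0.16 ± 0.116 in BALB/cJ, 5.90 ± 0.15 in B6By.C.132.54 and 5.97 ± 0.0967 in C57BL/6ByJ. Pttg1, whose probe sets fell together, had the smallest change, with -0.51 ± 0.216 in BALB/cJ, 1.02 ± 0.128 in B6By.C.132.54 and 0.99 ± 0.247 in C57BL/6ByJ. The median change of the gap over the 7 genes was -3.23 for BALB/cJ minus C57BL/6ByJ. Between B6By.C.132.54 and C57BL/6ByJ the gap changed by between -0.28 and 0.02, against a change of -6.43 to -1.50 for BALB/cJ minus C57BL/6ByJ. B6By.C.132.54 minus C57BL/6ByJ did not choose the genes, but it shares the C57BL/6ByJ arrays with the contrast that did. Its gap changes are thus not independent of that choice. An exact two-sided permutation test of 3 arrays against 3 cannot go below p = 0.1, so it could not have called a gene. Pdxdc1 and Rmst reached that p (0.35 after Benjamini-Hochberg adjustment over the 7 genes): their gaps were lower in B6By.C.132.54 on every array, by 0.28 and 0.27 on average.

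**Figure D3:**
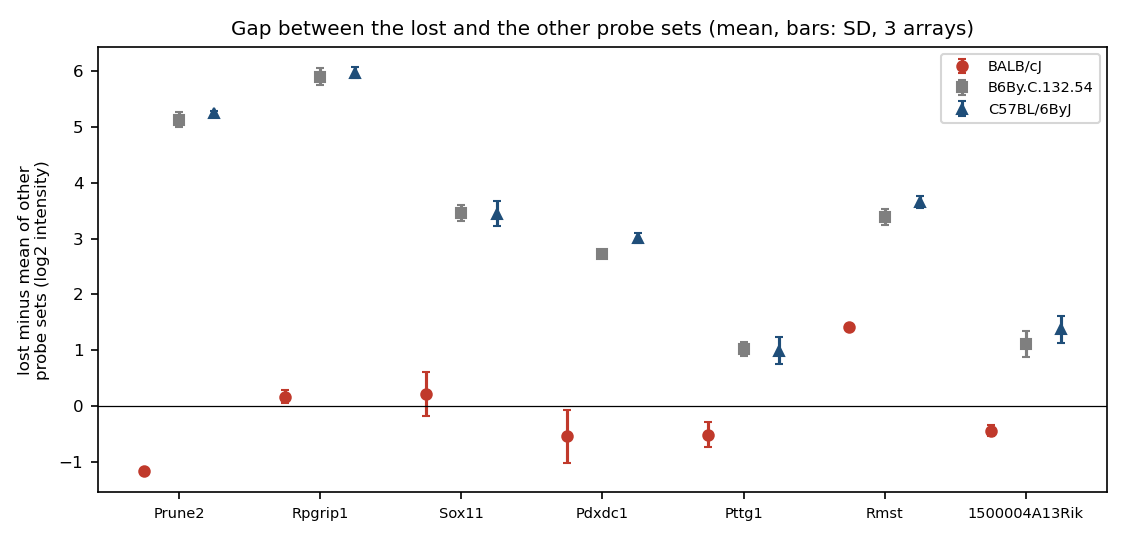
Lost probe set minus the mean of the other probe sets of the gene (log2 intensity), as mean and SD over 3 arrays, for BALB/cJ, B6By.C.132.54 and C57BL/6ByJ from left to right. Gaps in BALB/cJ lie between -1.17 and 1.41, below those of the other strains in each gene. That they lie below C57BL/6ByJ follows from how the lost probe set was picked.

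B6By.C.132.54 was the other strain set against C57BL/6ByJ, and here no loss was detected in the 7 genes. This contrast shares the C57BL/6ByJ arrays with the one that chose the genes, so it is not independent of that choice. C57BL/6ByJ values that were high by chance would lower both differences. The differences of the 7 lost probe sets ran from -0.48 to -0.02. No probe set of the 7 genes was called (limma, adjusted p of 0.915 or higher), as 0% of all 45037 were; 2 of the 26 had an unadjusted p under 0.05, as had 1751 of all. The 95% interval of the difference ran from -0.31 to 0.13 for the lost probe set of Prune2, -0.22 to 0.16 for Rpgrip1, -0.36 to 0.22 for Sox11, -0.56 to 0.28 for Pdxdc1, -0.26 to 0.23 for Pttg1 and -0.38 to 0.20 for Rmst. None of these intervals reached the size of the BALB/cJ difference of its gene. The probe sets with an unadjusted p under 0.05 were both of 1500004A13Rik: 1429729_at differed by -0.48 ± 0.181 (interval -0.88 to -0.08) and 1430660_at by -0.31 ± 0.133, both with overlapping arrays and neither called (limma adjusted p = 0.915 for each).

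BALB/cJ minus B6By.C.132.54 shares the BALB/cJ arrays with the contrast that chose the genes, so its values are given only beside it. The lost probe sets differed by -5.79 in Prune2, -5.71 in Rpgrip1, -3.02 in Sox11, -2.64 in Pdxdc1, -2.89 in Pttg1, -2.10 in Rmst and -1.96 in 1500004A13Rik. Of the 26 probe sets 11 were called lower and 3 higher, where 0.713% and 0.564% of all probe sets were. The probe sets that were higher in BALB/cJ differed from B6By.C.132.54 by 3.06 (Pdxdc1 1419327_at), 1.44 (Prune2 1455342_at), 1.07 (Sox11 1436790_a_at) and 1.03 (Sox11 1453125_at).

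**Figure D4:**
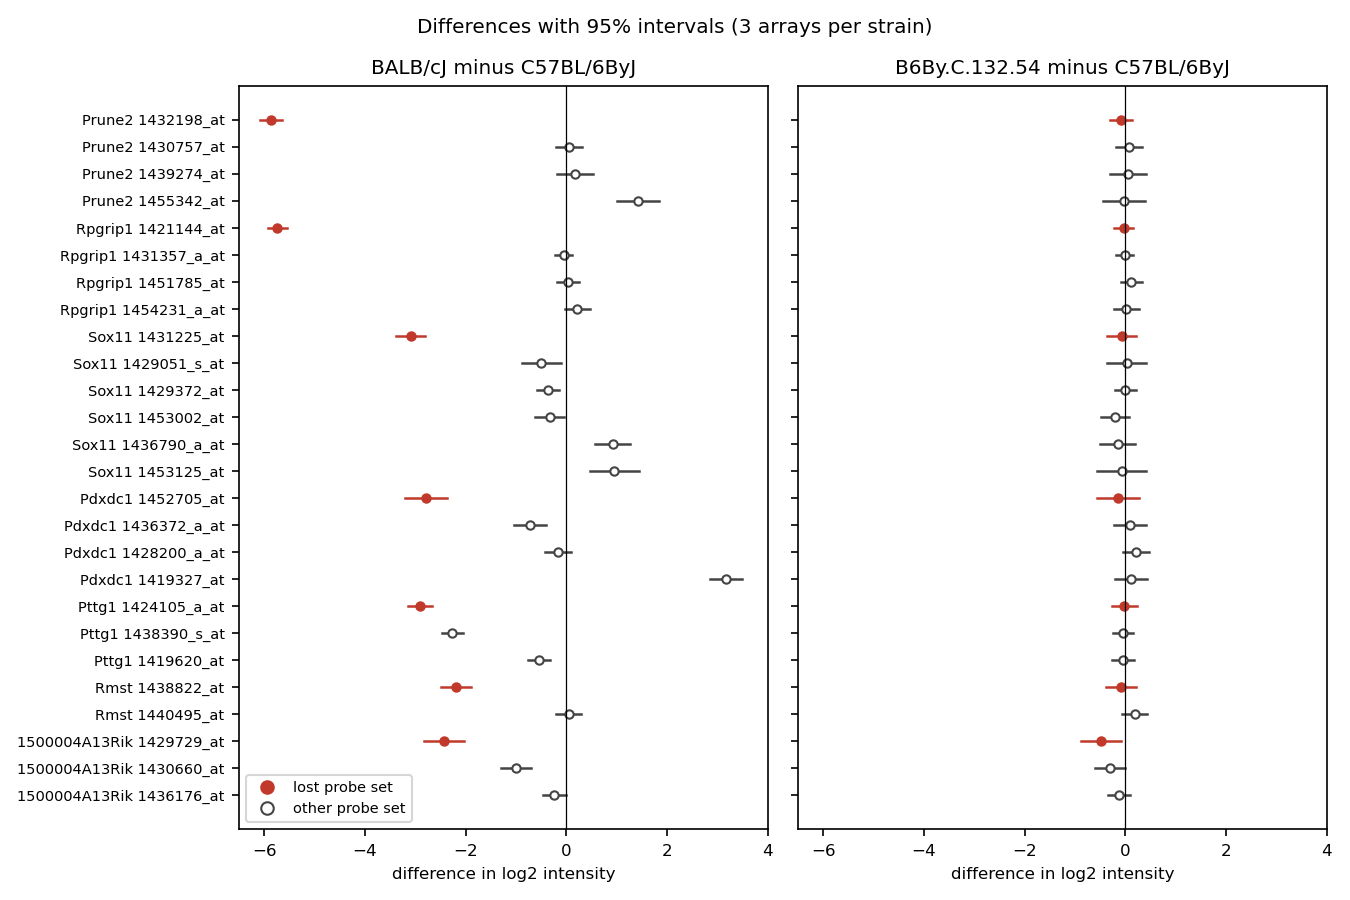
Difference in log2 intensity with its 95% interval from limma for all 26 probe sets, as BALB/cJ minus C57BL/6ByJ on the left and B6By.C.132.54 minus C57BL/6ByJ on the right; filled points are the lost probe sets. On the left points run from -5.88 to 3.17, and on the right from -0.48 to 0.21.

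The 7 genes are part of a larger group of such genes. Of 9010 genes with at least 2 probe sets, 23 had a probe set called lower in BALB/cJ than in C57BL/6ByJ by 2 or more on the log2 scale, the 7 members and 16 others, and 8 had one called higher by as much. In 12 of the 23 another probe set, at or above the median level, lay within 0.5 of no difference; Sox11 was the 1 member among them and 11 were other genes. Prune2, Rpgrip1 and Rmst did not meet this condition because their other probe sets near no difference were dim. In 4 of the 23 another probe set was called in the opposite direction, and 3 of these were members: Prune2, Sox11 and Pdxdc1. The fourth was Slc15a2, a peptide transporter gene.

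Genes ranked between the members by the difference were Pisd-ps3, a transcribed pseudogene with 3 such probe sets (-5.53, -3.44 and -3.14), the noncoding RNA gene Norad (-4.16), Phgdh of serine synthesis (-3.36) and Uqcr10 of respiratory complex III (-3.24). They were followed by 4930402H24Rik (-3.14), Arhgap26 (-3.13), Mtmr7 (-2.97), Camk2n1, an inhibitor of CaM kinase II (-2.81), and Clip4 (-2.73). Lower in rank came the peroxidase gene Prdx2 (-2.43), Kantr (-2.28), Zc2hc1a (-2.27) and Scmh1 (-2.23). The last member in this order was Rmst at -2.19, and just outside it stood Slc15a2 at -2.14, Vps52 at -2.09 and the probe set of Mir1931 at -2.06. Phgdh, Uqcr10, Camk2n1 and Prdx2 each had another probe set at or above the median level within 0.5 of no difference, the condition that Sox11 met.

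Pearson's r between lost probe sets ran from 0.951 to 0.999 over the 9 arrays, which mainly restates the separation of BALB/cJ that chose them. Outside the 7 genes, the probe sets most like their mean pattern were those of the kinase gene Stk25 (r = 0.997), Pgbd5, a gene derived from a transposase (0.997), Pisd-ps3 (0.996), Prdx2 (0.995) and Scmh1 (0.995). Stk25 averaged 6.29 in BALB/cJ, 8.07 in B6By.C.132.54 and 8.11 in C57BL/6ByJ, and Pgbd5 7.58 in BALB/cJ, 8.96 in B6By.C.132.54 and 9.04 in C57BL/6ByJ; neither has a second probe set. The most opposite were Baiap2l1 and the G protein subunit gene Gnb1 (r = -0.996 each), Tmem87a and Cap1 (-0.995 each) and Bcat1, an aminotransferase of branched-chain amino acids (-0.988). These values share the 9 arrays and rest on 1 split of strains.

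Genes related to the members by family or pathway were called at close to the share over all genes. Of 77 genes in 6 lists, 71 had a probe set of their own. By the brightest, 1 was called lower in BALB/cJ than in C57BL/6ByJ and 0 higher. That is 1.41%, where 1.32% of all 18193 genes were called. B6By.C.132.54 minus C57BL/6ByJ gave 0 calls, as it did over all 45037 probe sets. With the replicate number as a block 3 were called lower, with the noncoding RNA genes Snhg11 (-0.39) and Gas5 (-0.40) added (limma adjusted p = 0.03 and 0.0444). The block also raised the calls over all 45037 probe sets, from 644 to 953. The called gene was Dcx, which encodes doublecortin, a microtubule protein of migrating and immature neurons listed with Sox11. Its probe set 1418141_at read 4.60, 4.94 and 5.16 in BALB/cJ, 6.26, 7.01 and 6.72 in B6By.C.132.54, and 6.55, 6.74 and 7.20 in C57BL/6ByJ. The difference from C57BL/6ByJ was -1.93 ± 0.216 (SE; limma adjusted p = 0.000683) with no overlap of arrays, and that from B6By.C.132.54 was -1.77 (limma adjusted p = 0.00134). The other 3 probe sets of Dcx differed from C57BL/6ByJ by -0.34, -0.15 and 0.01 and were not called.

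The remaining lists held no called gene. Among the 7 relatives listed with Prune2, that is Prune1 and BCH domain genes, the median difference was 0.04, against 0.02 over all genes. Among 15 measured ciliary transition zone genes it was 0.03. It was -0.06 over the 13 SoxC and immature neuron genes, whose summed intensity was 11.97 to 12.00 log2 in BALB/cJ, 11.93 to 12.11 in B6By.C.132.54 and 12.12 to 12.14 in C57BL/6ByJ. The median was -0.003 over 10 genes listed with Pdxdc1: Gad1, Gad2, Gadl1, Csad, Ddc, Hdc, Odc1, Azin1, Azin2 and Sgpl1. Over 14 separase, cohesin and anaphase genes it was -0.05, as it was over 12 other long noncoding RNAs. Against B6By.C.132.54, Dcx was again the 1 called gene, where 1.1% of all genes were called.

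Markers of photoreceptors and of cycling cells were mostly dim. Of 8 measured photoreceptor markers, 2 averaged at or above the median, Crx at 4.28 and Nrl at 4.23, and their summed intensity lay between 6.48 and 6.51 log2 in BALB/cJ, 6.48 and 6.66 in B6By.C.132.54, and 6.47 and 6.50 in C57BL/6ByJ. Of 6 measured markers of cycling cells 2 were at or above the median, and their sum was 6.08 to 6.23 in BALB/cJ, 6.11 to 6.24 in B6By.C.132.54 and 6.03 to 6.13 in C57BL/6ByJ. Neither sum was lower in BALB/cJ beyond the range of the other strains.

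Genes beside the members on the chromosome were read in the order of the RefSeq annotation, with the 5 measured genes on each side. Of these 70 neighbours, 3 were called lower and 2 higher in BALB/cJ than in C57BL/6ByJ (7.14%), beside 1.32% of all genes. Next to Rpgrip1, Supt16, a subunit of the FACT histone chaperone, differed by 1.30 ± 0.0973 (SE; limma adjusted p = 3.53e-05), and the chromatin remodeller gene Chd8 by -0.92 ± 0.143 (limma adjusted p = 0.00683). Near Rmst, Cfap54 differed by 1.04 and the probe set of Mir1931 by -2.06, and near 1500004A13Rik the mitochondrial ribosome gene Dap3 by -0.96 (limma adjusted p = 0.00724, 9.85e-05 and 0.000434). No neighbour of Prune2, Sox11, Pdxdc1 or Pttg1 was called. All 5 differed the same way from B6By.C.132.54, in which none was called against C57BL/6ByJ.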

How the data were processed

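The values analysed are deposited linear intensities, 1 for each probe set on an array. GCOS and RMA are the tools listed in the submitters' processing notes, and how arrays were normalized is not given in the sources used here. Array medians lay between 15.5 and 16, and the number of arrays limits the precision. Their log2 was analysed without pseudocount or further normalization, and 64 control probe sets were left out. Genes come from the platform annotation, with symbols updated through RefSeq (GRCm38.p6), for 34945 probe sets with 1 gene; those with several genes (932) or none (9160) carry no name. limma 3.58.1 under R 4.3.3 fitted 1 mean per strain to all 9 arrays (6 residual degrees of freedom), with Benjamini-Hochberg adjustment over 45037 probe sets and a threshold of 0.05. The model was tested on simulated data.

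The members and lists were chosen with earlier results of these data known. Named besides the members were, by rule, the 5 genes most like and most unlike their pattern, and genes ranked between and just below them. The rule also named genes with a lost probe set and another within 0.5 of no difference, and called genes of the related lists and neighbours. Astrocyte, neuron and other marker genes were named after their values were seen. Same-numbered arrays of different strains deviated together, with a correlation of deviations from the strain means of 0.147 to 0.542 in all 9 pairs. In the 18 pairs with different numbers it was -0.458 to 0.153. The main fit and the permutation tests did not use this pairing, so their SE, p and calls leave it out. The replicate number entered only as a block, in an alternative. Permutation tests used SciPy 1.17.1. Other alternatives were quantile normalization, median centring, leaving out dim probe sets, 2 strains alone, adding 16 to the intensity and leaving out each array.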

Additional observations from a re-analysis of the deposited data

How the results depend on the processing

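Under the 15 alternatives, the lost probe sets kept their direction and their call in both comparisons with BALB/cJ, and no member probe set reversed a call. Between B6By.C.132.54 and C57BL/6ByJ no lost probe set was called under any of them, and the uncalled differences of some changed sign, as in Pttg1 1424105_a_at (-0.09 to 0.09). In BALB/cJ minus C57BL/6ByJ, between 8 (Pttg1 left out, an alternative chosen after seeing the data) and 11 of the 26 probe sets were called lower and 2 to 4 higher; with the replicate block the counts were 11 and 4, the added one being Sox11 1453125_at (limma adjusted p = 0.0234). In that comparison calls were lost under at least 1 setting for Pttg1 1419620_at, Pdxdc1 1436372_a_at and Sox11 1436790_a_at, and in BALB/cJ minus B6By.C.132.54 for Pttg1 1419620_at, Pdxdc1 1436372_a_at and 1500004A13Rik 1430660_at. Against B6By.C.132.54 the counts were 8 to 11 and 3 to 4, and between B6By.C.132.54 and C57BL/6ByJ they were 0 throughout. The median change of the gap was -2.53 against C57BL/6ByJ and -2.40 against B6By.C.132.54 with 16 added to the intensity, which compresses dim values by construction. With only the other probe sets at or above the median, it was -3.57 and -3.45 over the 4 genes that have one; this keeps Pdxdc1 1419327_at, which passed through its BALB/cJ level. It was -3.39 to -3.01 and -3.40 to -3.02 when 1 array was left out. The count of 12 genes with a lost and an unmoved probe set became 7 with 16 added and 46 with a threshold of 1. Over the whole table, calls in BALB/cJ minus C57BL/6ByJ ran from 410 probe sets without C57BL/6ByJ replicate 2 to 953 with the replicate block. Related genes called in BALB/cJ minus C57BL/6ByJ numbered 1 in the report, 2 with quantile normalization or with 2 strains alone, 3 with the replicate block or 16 added, and 1 to 2 when 1 array was left out (2 without B6By.C.132.54 replicate 3). Dcx was called under each. Beyond these, the replicate block changed no call of a member. The depth of a loss into dim signal is a minimum that background limits.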
